A study of Mus musculus with 6 samples.

Results

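Glycolysis splits glucose into pyruvate in the cytosol, and glycogen is the branched glucose store from which a contracting muscle fiber feeds that pathway. Fast-twitch fibers are known for high levels of the glycolytic enzymes, of muscle phosphorylase and of the lactate exporter, whereas slow-twitch fibers carry more of the heart-type lactate dehydrogenase and of the lactate importer. Many steps have several isozymes, of which skeletal muscle uses one in great excess: PFKM, ALDOA, PGAM2, ENO3, LDHA and PYGM are the muscle forms, while PFKL, PFKP, ALDOC, PGAM1, ENO1, PYGL and PYGB prevail in liver, brain or other tissues. The 41 genes described here cover glucose and lactate transport, each step of glycolysis, the enzymes that set fructose-2,6-bisphosphate, and the synthesis, breakdown and targeting of glycogen. They were taken by gene symbol from a table of 24532 genes, and all 41 were among the 13801 genes with enough reads to be tested.

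The study examined the RNA profile of gastrocnemius (GAS) muscle, a mixed and mostly fast calf muscle, in mice bred to lack SIRT6, a nuclear deacylase, in skeletal muscle. Poly-A RNA was sequenced in 3 WT libraries (Sirt6 flox/flox, named WT1, WT4 and WT6) and 3 Sirt6 KO libraries (Myl1-Cre; Sirt6 flox/flox, named KO3, KO6 and KO7), all from C57BL/6 males at about 20 weeks of age, with 44845763 to 63016899 counts per library. Cre was driven from Myl1, which is active in fast fibers from embryonic life on, so fibers without Myl1 activity and the other cells of the muscle should have kept Sirt6. Both groups carry the floxed alleles, and the KO group alone carries the Cre insertion at Myl1, so effects of Cre and of the deletion cannot be told apart. Myl1 itself had overlapping groups, at 10416 ± 3468 CPM in WT and 10062 ± 1503 in Sirt6 KO libraries (SD, n = 3).

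The libraries were checked before the results. Sirt6 stood at 2.77, 2.23 and 2.88 normalized CPM (counts scaled to library size with TMM factors, in CPM) in WT1, WT4 and WT6 and at 7.81, 7.44 and 6.68 in KO3, KO6 and KO7. Counts over the whole gene thus lay higher, not lower, where the labels give Sirt6 KO (log2 fold change 1.48, SE 0.17, adjusted p = 0.011 by edgeR's quasi-likelihood test). The study reported loss of SIRT6 protein by Western blot in skeletal muscle of mice from this cross, a measure of protein and not of RNA. The whole-gene count does not separate the floxed exons from the rest, and every direction below is that of the libraries as labelled. Markers of muscle fibers, with none of the 10 absent, summed to 100821 and 107382.5 CPM in WT1 and WT4. They summed to 152314 in WT6 and 150311 to 158799 in the KO libraries. The summed fast fiber markers were likewise lowest in WT1 and WT4, at 138291 and 148302 CPM, against 223589 in WT6 and 199491 to 234827 in the KO libraries. None of the 10 fast or 10 slow fiber markers passed the threshold singly. The summed slow oxidative fiber markers, however, lay at 8057 and 8819 CPM in WT1 and WT4 and at 5202 in KO6, against 1440 in WT6, 1745 in KO3 and 2165 in KO7, so WT6 stood with the KO libraries rather than with its own group. WT1 and WT4 were likewise highest in endothelial markers (342 and 397 CPM, against 194 in WT6 and 216 to 233 in the KO libraries). The same held for the erythroid sum (297 and 291 CPM against 46.6 to 181), the Schwann cell sum (55.1 and 73.2 against 26.0 to 38.3, with 1 of its 7 markers past the threshold and lower in KO libraries) and the fibroblast sum (914 and 703 against 505 to 624). It did not hold for the macrophage sum, at 88.6 CPM in WT1 but 31.2 in WT4, against 35.8 to 48.7. Nor did it hold for the adipocyte sum (186 and 259 against 124 to 298) or the very low neutrophil sum (0.48 and 0.42 against 0.24 to 0.93). The part of these differences in the results below was not tested beyond the fit with the slow marker sum as a covariate and the fits without each library. In bulk tissue, fewer fibers of a type and less RNA per fiber cannot be told apart.

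The 41 genes covered a very wide range of levels. Per transcript length, in TPM, the mean over the 6 libraries ran from 0.28 for Aldoc to 23426 for Aldoa, fructose-bisphosphate aldolase A, followed by Eno3 (7234), Pygm (6967), Gapdh (5876), Pgam2 (3679), Pkm (3630), Ldha (3627), Pfkm (3562), Tpi1 (2754) and Pgk1 (1395). Neighbours from Pgam2 to Pfkm in that order differed by less than their spread between libraries. These 10 genes held 86.9% to 90.9% of the summed TPM of the 41. Together the 41 genes took 6.17% to 7.52% of all TPM, 66902 ± 7197 (SD, n = 3) in WT and 71911 ± 4352 (SD, n = 3) in Sirt6 KO libraries, with overlapping groups.

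**Figure D1:**
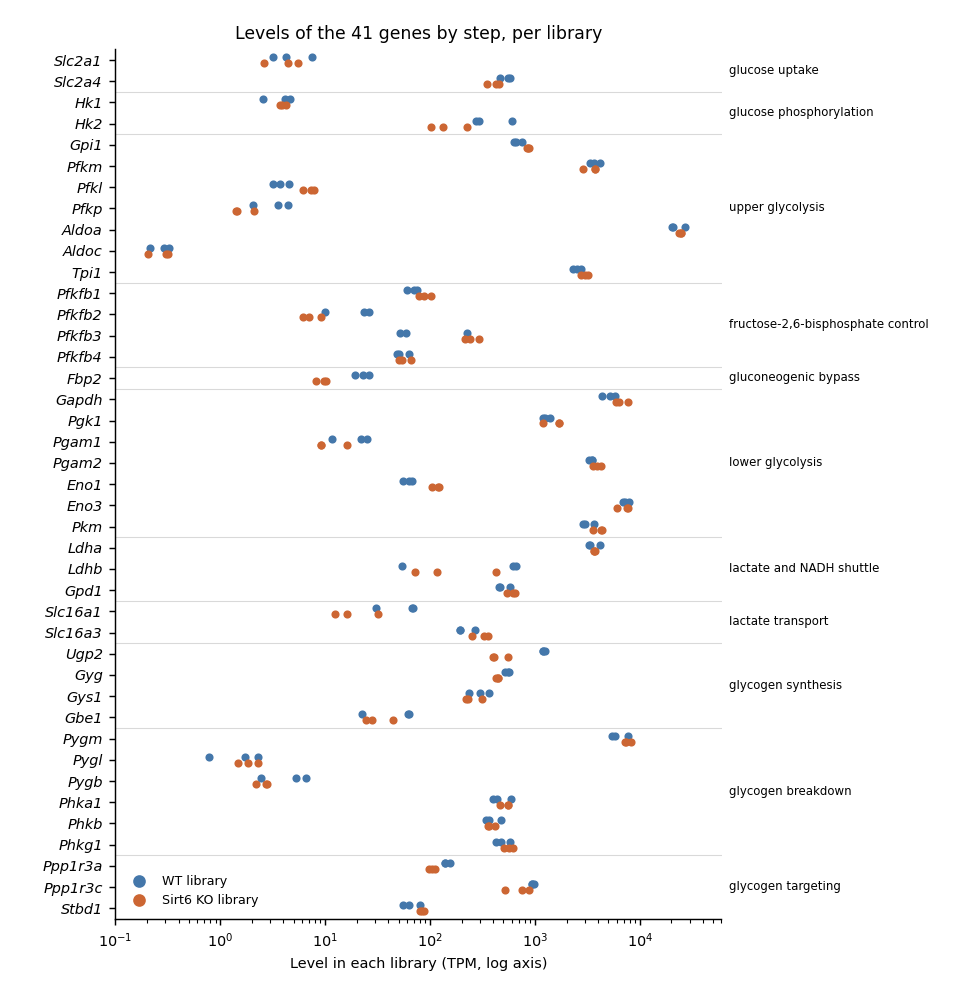
Level of each of the 41 genes in each library, in TPM on a log axis, ordered by step of the pathway; blue points are the 3 WT libraries and orange points the 3 Sirt6 KO libraries. The muscle isozymes Aldoa, Eno3, Pygm, Pgam2 and Pfkm lie far above the other isozymes of their steps, and the groups separate clearly for few genes, among them Ugp2, Fbp2, Pfkl and Eno1.

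Of the 41 genes, 6 passed an adjusted p of 0.05 (edgeR's quasi-likelihood test, Benjamini-Hochberg over all 13801 genes): Pfkl, Pfkfb1 and Eno1 rose in the libraries labelled Sirt6 KO, and Ugp2, Fbp2 and Pfkfb2 fell. Those 14.6% lie near the share of all tested genes called, 16.2%, of which 7.85% were higher and 8.39% lower, so the list as a whole was not called more often than the rest of the transcriptome. The median log2 fold change was 0.12 over the 41 genes and -0.02 over all tested genes, and 24 of the 41 had a positive value. At an unadjusted p of 0.05, 12 of the 41 passed.

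Ugp2, UDP-glucose pyrophosphorylase, makes the UDP-glucose from which glycogen is built, and it showed the lowest log2 fold change of the 41. It stood at 1403, 1575 and 1750 normalized CPM in WT1, WT4 and WT6 and at 534, 777 and 559 in KO3, KO6 and KO7. The highest KO library thus lay well under the lowest WT library. The log2 fold change was -1.34 (SE 0.19, adjusted p = 0.013), a level 2.53-fold higher in WT. Per length, it went from 1217 ± 36.0 to 453 ± 88.3 TPM (SD, n = 3 each). WT6, poor in slow fiber markers, had the highest Ugp2 level, and KO6, the KO library richest in them, was the highest of its group. Ugp2 (NCBI gene 216558, chromosome 11, 21321126 to 21371267, mm10) has a low GC content of 39.1%, and after the trend of counts with GC content was removed its log2 fold change was -0.99 (adjusted p = 0.035, where 6.93% of genes were called).

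Fbp2 encodes the muscle fructose-1,6-bisphosphatase, which runs the phosphofructokinase step backwards and serves glycogen synthesis from lactate. Its levels were 10.3, 13.0 and 17.5 CPM in WT1, WT4 and WT6, against 5.95, 5.35 and 6.66 in KO3, KO6 and KO7. All 3 KO values were below all 3 WT values, with a log2 fold change of -1.19 (SE 0.21, adjusted p = 0.017). The gene (NCBI gene 14120, chromosome 13, 62836884 to 62858400) is expressed at only 16.0 TPM on average, from 324 to 1003 counts per library.

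PFKFB enzymes make and degrade fructose-2,6-bisphosphate, the strongest known allosteric activator of phosphofructokinase, and their 4 genes did not move as 1 group. Pfkfb2, the heart form (NCBI gene 18640, chromosome 1, 130689043 to 130729253), was at 60.5, 69.1 and 30.3 CPM in WT1, WT4 and WT6 and at 17.2, 28.3 and 20.8 in KO3, KO6 and KO7. WT6 was just above KO6, so the groups stood apart by only a small margin (log2 fold change -1.27, SE 0.32, adjusted p = 0.038). Pfkfb1, the liver and muscle form (NCBI gene 18639, chromosome X, 150587445 to 150643878), was level in the WT group at 54.3, 54.0 and 54.5 CPM and reached 64.9, 89.9 and 76.0 in the KO group. It rose by a log2 fold change of 0.50 (SE 0.13, adjusted p = 0.043), the smallest change of the 6. Pfkfb3, the inducible form with the highest kinase activity and the highest of the 4 in WT6 and the KO libraries but under Pfkfb1 in WT1 and WT4 by TPM, was low in WT1 and WT4 (110 and 133 CPM) and high in WT6 (593) and in KO3, KO6 and KO7 (706, 611 and 553). WT6 fell among the KO libraries, and the difference did not pass (log2 fold change 1.16, SE 0.61, adjusted p = 0.21). With the slow marker sum as a covariate it was 1.09 with an adjusted p of 0.048, in a fit that called 22.1% of genes. Pfkfb4 differed least (68 to 112 CPM in all 6 libraries, log2 fold change 0.16, adjusted p = 0.61).

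Pfkl and Eno1 are isozymes that prevail outside muscle, and both rose, by 2.05-fold and 2.02-fold, from low levels. Pfkl, the liver phosphofructokinase (NCBI gene 18641, chromosome 10, 77986947 to 78009807), stood at 5.69, 7.38 and 6.09 CPM in WT1, WT4 and WT6, against 10.9, 14.6 and 13.8 in KO3, KO6 and KO7 (log2 fold change 1.04, SE 0.17, adjusted p = 0.015). Eno1, the ubiquitous alpha-enolase (NCBI gene 13806, chromosome 4, 150236708 to 150248879), was at 49.5, 49.5 and 51.2 CPM in WT and at 87.9, 109 and 107 in KO libraries (log2 fold change 1.02, SE 0.12, adjusted p = 0.011). The groups did not overlap for either gene, and WT6 sat with WT1 and WT4 in both. Reads of Eno1 can be shared with its near-identical copy Eno1b, which was listed at 18.4 to 52.0 CPM (log2 fold change 0.60, adjusted p = 0.17), so the level of Eno1 is uncertain. The sum of both was 75.6 ± 9.31 CPM in WT and 140 ± 20.2 in KO libraries (SD, n = 3). Both genes are rich in GC (57.1% for Pfkl and 57.4% for Eno1), and over all genes the log2 fold change rose with GC content (Spearman's rho of 0.334 over 13715 genes, themselves no independent replicates). With the GC trend removed, the changes were 0.81 (adjusted p = 0.038) for Pfkl and 0.79 (adjusted p = 0.023) for Eno1, and Pfkfb2 was lost (-1.14, adjusted p = 0.067). Of the 6 genes, Ugp2 overlaps Vps54, Pfkfb1 overlaps Apex2 and Pfkfb2 overlaps Yod1, whose highest levels were 41.04, 5.43 and 5.37 CPM.

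**Figure D2:**
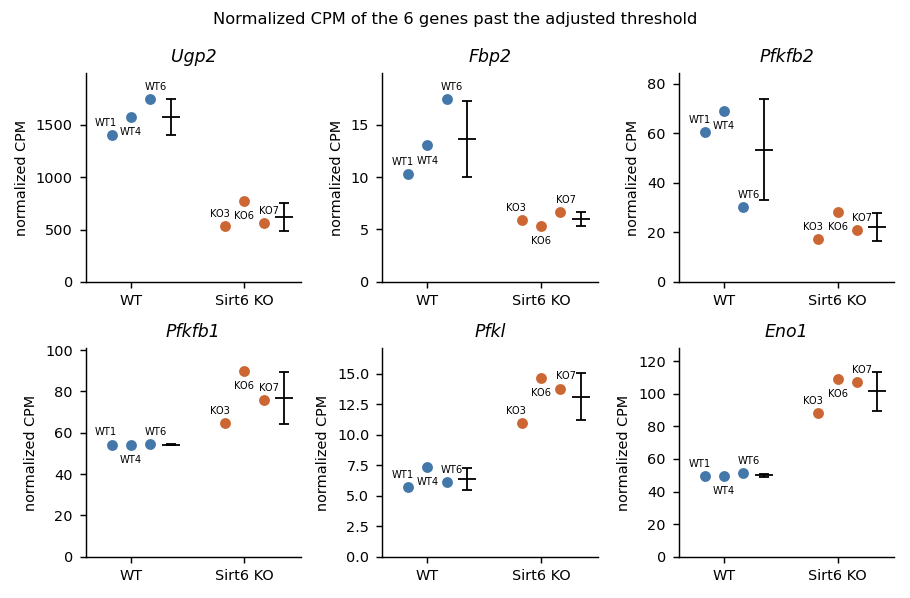
Normalized CPM of the 6 genes past the adjusted threshold, 1 point per library on axes that start at 0, with the mean and SD of each group of 3 in black. The groups separate in all 6 panels, narrowly for Pfkfb2, where WT6 at 30.3 sits next to KO6 at 28.3.

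Stretches of the 250 bases before the transcription start are shown for 5 of the 6 genes that passed, to set their letters beside the direction of change, with searched motifs in capitals. Pfkfb1, which rose, has 4 listed starts without any of the motifs and is not printed. The motifs, read on both strands, were ACGTG, the core that hypoxia-inducible factors bind, CACGTG, the E-box bound by MYC and USF, which contains ACGTG, and TGACG, the short form of the cAMP response element bound by CREB. RefSeq starts (GRCm38.p6) were held for 39 of the 41 genes, with 57 starts in all, and not for Gpd1 and Slc2a4. Apart from Pfkfb2, the stretches leave out annotated exons of the gene. For Pfkfb2, another listed transcript starts inside the window, upstream of the bases shown. Only 30 bases are printed there, and they were picked around its CACGTG, so that stretch is not a neutral excerpt. Positions count back from the base before the start.
Fbp2, fell, chr13:62858423-62858650, minus strand, positions -250 to -23: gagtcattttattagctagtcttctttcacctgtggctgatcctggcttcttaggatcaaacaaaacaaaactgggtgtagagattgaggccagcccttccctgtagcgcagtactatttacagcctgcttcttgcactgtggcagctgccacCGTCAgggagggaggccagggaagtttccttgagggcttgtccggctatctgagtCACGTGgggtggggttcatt
Ugp2, fell, chr11:21371268-21371517, minus strand, start 1 of 2, positions -250 to -1: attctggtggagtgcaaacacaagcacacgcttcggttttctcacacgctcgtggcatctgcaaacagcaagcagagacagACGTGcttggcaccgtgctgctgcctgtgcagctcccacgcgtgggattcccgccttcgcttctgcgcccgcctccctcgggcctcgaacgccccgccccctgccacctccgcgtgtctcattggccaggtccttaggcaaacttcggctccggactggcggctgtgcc
Pfkfb2, fell, chr1:130715826-130715855, minus strand, start 1 of 3, positions -34 to -5: ggccaagcgcccCACGTGactcgccccaac
Pfkl, rose, chr10:78009808-78010004, minus strand, positions -197 to -1: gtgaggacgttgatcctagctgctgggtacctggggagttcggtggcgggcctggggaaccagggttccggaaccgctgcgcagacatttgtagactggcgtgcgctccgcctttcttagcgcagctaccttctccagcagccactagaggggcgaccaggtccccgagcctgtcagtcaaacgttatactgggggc
Eno1, rose, chr4:150236458-150236707, plus strand, start 1 of 3, positions -250 to -1: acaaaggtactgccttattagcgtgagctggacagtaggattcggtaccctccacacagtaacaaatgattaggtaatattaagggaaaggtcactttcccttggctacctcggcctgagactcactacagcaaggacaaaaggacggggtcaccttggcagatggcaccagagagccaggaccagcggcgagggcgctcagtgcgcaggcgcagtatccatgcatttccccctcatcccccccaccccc

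The windows of Fbp2 and of start 1 of Pfkfb2 each held a CACGTG, at position -42 and at position -22, together with a TGACG, at -97 (read as CGTCA on the strand printed) and at -52 (upstream of the bases shown). Start 1 of Ugp2 held an ACGTG at -169 and no TGACG, and its other start held none of the motifs. Of the other starts of Pfkfb2, start 2 held none and start 3 held only an ACGTG, at -172. As a check, the first bases after each start were sought in GENCODE transcripts of the gene. Among the printed starts, they were found for Fbp2 and Pfkl and not for Ugp2, Pfkfb2 and Eno1. For Pfkfb2, they were found at start 3 alone. None of the motifs occurred at the listed starts of Pfkl, Eno1 and Pfkfb1. Over the 41 genes, ACGTG lay in 22 of 57 starts (38.6%), against 16.6% of all 32851 starts of the same length. CACGTG lay in 12.3% against 6.02%, and TGACG in 22.8% against 17.8%. The windows of the 41 genes were richer in GC than all windows (median 60.0% against 52.4%), and letters in a window do not show that a factor binds there. Whether the motifs differ between genes that rose and genes that fell was not tested, and the genes are too few to show it.

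The other 35 genes did not pass the threshold, and the most abundant forms of the pathway were among them. Aldoa was at 12768, 13753 and 21080 CPM in WT1, WT4 and WT6 and at 17004, 18699 and 18925 in the KO libraries (log2 fold change 0.20, SE 0.26, adjusted p = 0.62). WT6 was the highest of the 6 and WT1 and WT4 the lowest. Pygm, the muscle glycogen phosphorylase whose loss causes McArdle disease, was likewise lowest in WT1 and WT4, at 6955, 6855 and 11486 CPM in WT and 10095, 10465 and 11916 in KO libraries (log2 fold change 0.36, adjusted p = 0.36). Pfkm, the rate-setting muscle phosphofructokinase, differed least of all, with group means of 4844 ± 1073 and 4838 ± 822 CPM (SD, n = 3) and a log2 fold change of -0.0017 (SE 0.23). Its levels were 4284, 4165 and 6081 CPM in WT1, WT4 and WT6 and 3889, 5304 and 5321 in KO3, KO6 and KO7, with KO3 the lowest and WT6 the highest. Eno3, the muscle enolase, was at 4591, 4673 and 6273 against 4449, 5965 and 5824 CPM (log2 fold change 0.06), and again KO3 was lowest and WT6 highest. Ldha, the muscle lactate dehydrogenase, was at 2256, 2371 and 3480 against 2808, 2944 and 3054 CPM (0.12). Pgam2, the muscle phosphoglycerate mutase, was at 1322.5, 1325 and 1646 against 1541, 1949 and 1788 CPM (0.30). In both, WT1 and WT4 were the lowest libraries and the groups overlapped through WT6. Tpi1, triosephosphate isomerase, was at 1681, 1625 and 2299.5 against 2085, 2570 and 2432 CPM (0.34). Pgk1, phosphoglycerate kinase, was at 946.5, 956 and 1300 against 1036, 1556 and 1546 CPM (0.37), and Pkm, pyruvate kinase, at 3062, 3101 and 4616 against 4131, 5205 and 5385 CPM (0.45). WT6 lay above KO3 in these 3 genes too, so their groups overlapped.

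Gapdh and Gpi1 came nearest among the abundant enzymes. Gapdh, the dehydrogenase that makes glycolytic NADH and that the study's methods name as a qPCR reference, stood at 3408, 2767 and 3831 CPM in WT and at 4038, 5489 and 4496 in KO libraries. The groups did not overlap, and the log2 fold change of 0.49 (SE 0.21) did not pass by edgeR (adjusted p = 0.14) but did by the DESeq2 Wald test (adjusted p = 0.031), which called 25.6% of genes. Gpi1, glucose-6-phosphate isomerase, was at 792, 801 and 1122 against 1179, 1221 and 1271 CPM (log2 fold change 0.43, adjusted p = 0.13, and 0.044 by DESeq2). In all, 5 of the 41 genes lay higher without overlap between groups and 8 lower, at backgrounds of 20.3% and 19.6% of tested genes.

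Among the genes for glucose entry, both main muscle forms had lower transcript levels in KO libraries without passing edgeR's test. Hk2, the insulin-responsive hexokinase that traps glucose in muscle, had 676, 1487 and 784 CPM in WT1, WT4 and WT6 and 269, 617 and 366 in KO3, KO6 and KO7. KO6 came close to WT1, and the log2 fold change was -1.23 (SE 0.39, adjusted p = 0.071 by edgeR and 0.0053 by DESeq2). Hk1, the housekeeping hexokinase, stayed between 5.46 and 8.63 CPM. Slc2a4, the insulin-regulated transporter GLUT4, was at 654, 725 and 682 against 467, 644 and 601 CPM (log2 fold change -0.27, adjusted p = 0.26), and Slc2a1, the basal transporter GLUT1, at 3.18 to 8.55 CPM in all libraries with overlapping groups.

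The remaining isozymes of phosphofructokinase and phosphoglycerate mutase were rare. Pfkp, the platelet phosphofructokinase, was at 7.50, 6.34 and 4.28 CPM in WT and at 2.77, 4.22 and 2.89 in KO libraries. Its log2 fold change, opposite in sign to that of Pfkl, was -0.87 (SE 0.27, adjusted p = 0.065 by edgeR and 0.018 by DESeq2). Pfkp overlaps Pitrm1, which reached 62.9 CPM, and whether reads were counted by strand is not given in the sources used here, so the 2 genes may share reads. Pgam1, the brain form of the mutase (-0.64), and Pygb, the brain phosphorylase (-0.73, adjusted p = 0.13), were highest in WT1 and WT4, the libraries richest in slow fiber markers. Aldoc was covered by 13 to 25 counts per library, too few to show a change of small size.

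Ldhb, the heart form of lactate dehydrogenase, had the largest standard error of the 41 genes. It was at 335 and 381 CPM in WT1 and WT4 and 276 in KO6, but at 36.3 in WT6, 44.5 in KO3 and 76.9 in KO7. That order is the order of the summed slow fiber markers, and the log2 fold change of -0.92 (SE 0.90, adjusted p = 0.50) turned to 0.33 with those markers as a covariate. Slc16a1, the lactate importer MCT1 typical of slow fibers, was at 123, 134 and 69.9 CPM in WT1, WT4 and WT6 and at 26.4, 71.3 and 36.2 in KO3, KO6 and KO7. WT6 and KO6 met, and the log2 fold change of -1.29 (SE 0.39) missed the threshold by edgeR (adjusted p = 0.064). It passed by the DESeq2 Wald test (adjusted p = 0.0043) and with the covariate (-0.96, adjusted p = 0.017). Those fits called 25.6% and 22.1% of genes. Slc16a3, the exporter MCT4 typical of fast fibers, ran the other way, at 199, 210 and 344 against 290, 402 and 440 CPM (log2 fold change 0.59, SE 0.25, adjusted p = 0.14). Gpd1, the cytosolic enzyme of the glycerol phosphate shuttle, had overlapping groups (0.36).

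Of the other genes of glycogen, none passed by edgeR with group as the only term. With the slow marker covariate, Ppp1r3a (-0.43, adjusted p = 0.047) and Pygl (0.76, adjusted p = 0.049) passed, in a fit that called 22.1% of genes. Without WT6, Phka1, Phkg1 and Pygb were among those that passed (adjusted p = 0.018, 0.016 and 0.013), in a fit that called 32.5%. On the side of synthesis, Gyg, glycogenin, was lower without overlap but by little (397, 395 and 508 against 365, 366 and 386 CPM, log2 fold change -0.22, adjusted p = 0.30). Gys1, the muscle glycogen synthase, was at 463, 589 and 446 against 385, 580 and 424 CPM (-0.11), and Gbe1, the branching enzyme, at 76.5, 83.7 and 35.02 against 34.6, 66.0 and 42.2 CPM (-0.45). Gbe1 was high in WT1, WT4 and KO6, as Ldhb was. On the side of breakdown, the phosphorylase kinase subunits Phka1, Phkb and Phkg1 had log2 fold changes of 0.04 to 0.28 and were each highest in WT6, and Pygl, the liver phosphorylase, was rare at 1.15 to 3.27 CPM (0.38). Ppp1r3a, the muscle subunit that brings protein phosphatase 1 to glycogen, was at 410, 442 and 566 CPM in WT and at 335, 371 and 399 in KO libraries (log2 fold change -0.36, adjusted p = 0.15). Ppp1r3c, another targeting subunit (-0.30), and Stbd1, a glycogen-binding protein (0.44, adjusted p = 0.16), overlapped between groups. By role, synthesis thus had 1 of its 4 genes past the threshold, Ugp2. Breakdown had 0 of 6 and targeting 0 of 3 by edgeR and by DESeq2 after adjustment, and by edgeR Pygb alone of these had an unadjusted value under 0.05. With 16.2% of all genes called, groups this small do not set the roles apart.

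**Figure D3:**
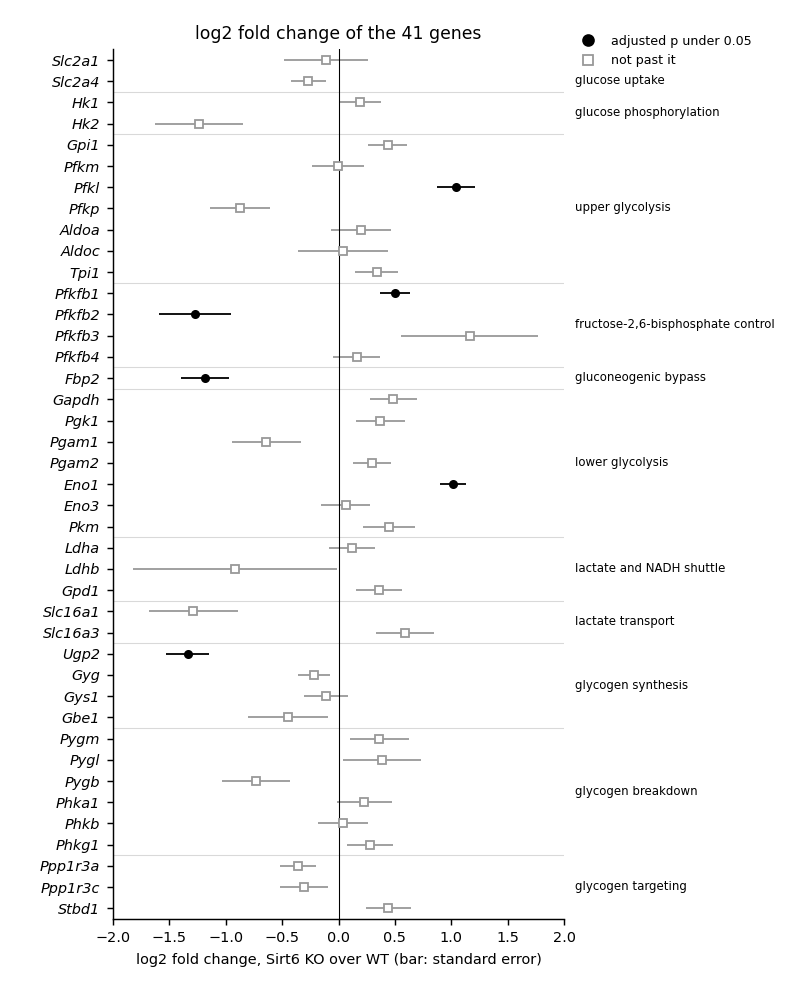
log2 fold change of normalized counts, Sirt6 KO over WT, of the 41 genes in order of their step, with the standard error as a bar; filled circles passed an adjusted p of 0.05 and open squares did not. The 6 filled points lie between -1.34 and 1.04, on both sides of 0, and the wide bar of Ldhb (SE 0.90) spans most of the negative range.

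Ratios of isozymes within a library need no scaling between libraries, and 12 pairs were compared on TPM with an exact two-sided permutation test, for which 0.1 is the smallest p that 3 against 3 libraries allow and 0.3 the smallest adjusted value reached. In 4 of the 12 pairs the groups did not overlap, each at an exact permutation p of 0.1. Among single tested genes, 20.3% lay higher and 19.6% lower without overlap, so that count does not set the pairs apart. No such share was taken over ratios. Hk2, Pfkl and Eno1, each in 1 of these pairs, were already without overlap as single genes. Hexokinase 2 over hexokinase 1 had a log2 ratio of 6.65 ± 0.45 in WT and 5.20 ± 0.67 in KO libraries (SD, n = 3), and Pfkm over Pfkl one of 9.94 ± 0.41 and 8.91 ± 0.06. Eno3 over Eno1 went from 6.90 ± 0.22 to 5.94 ± 0.06, and Slc16a3 over Slc16a1 from 2.06 ± 0.94 to 4.04 ± 0.60. The non-muscle form nevertheless stayed a small share of its pair: Pfkl was 0.104% ± 0.029 in WT and 0.207% ± 0.0088 in KO libraries of Pfkm plus Pfkl, and Eno1 0.839% ± 0.123 and 1.60% ± 0.069 of Eno3 plus Eno1. For lactate transport the share was larger, as Slc16a1 made up 25.6%, 26.1% and 10.2% of the 2 transporters in WT1, WT4 and WT6 and 4.79%, 8.93% and 4.35% in KO3, KO6 and KO7. Ldhb over the sum of Ldha and Ldhb overlapped, at 15.6%, 16.7% and 1.29% in WT against 1.94%, 10.5% and 3.05% in KO libraries.

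The plot by library shows 2 kinds of gene. Eno1, Pfkl, Ugp2, Fbp2 and Pfkfb1 divided the libraries by label, with WT6 on the side of WT1 and WT4. Pfkfb2, past the threshold, did so by a small margin. Hk2, Slc2a4, Gyg, Ppp1r3a and Pfkp, lower in KO libraries, and Gapdh and Gpi1, higher, did so too, by narrow margins and without passing the threshold. Pfkfb3, Ldhb, Gbe1, Pygb, Stbd1 and, to a lesser extent, the abundant enzymes Aldoa, Pygm and Pkm set WT1 and WT4 apart from WT6. Without WT6, 22 of the 41 genes passed, 16 higher and 6 lower, in a fit that called 32.5% of genes. The 16 then included Aldoa (log2 fold change 0.46, adjusted p = 0.040), Pygm (0.65, 0.015), Gapdh (0.60, 0.044), Pkm (0.67, 0.020), Stbd1 (0.72, 0.0056) and Pfkfb3 (2.36, 0.0038). Without KO3 or without KO7, 0 of the 41 passed, when only 8 and 13 genes of the whole table did, and 11 and 8 of the 41 had an unadjusted p under 0.05. Ugp2 and Eno1 passed in 4 of the 6 fits that left out a library, Pfkl in 3, Fbp2 in 2 and Pfkfb1 and Pfkfb2 in 1, and the 6 genes kept their direction in all of them.

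**Figure D4:**
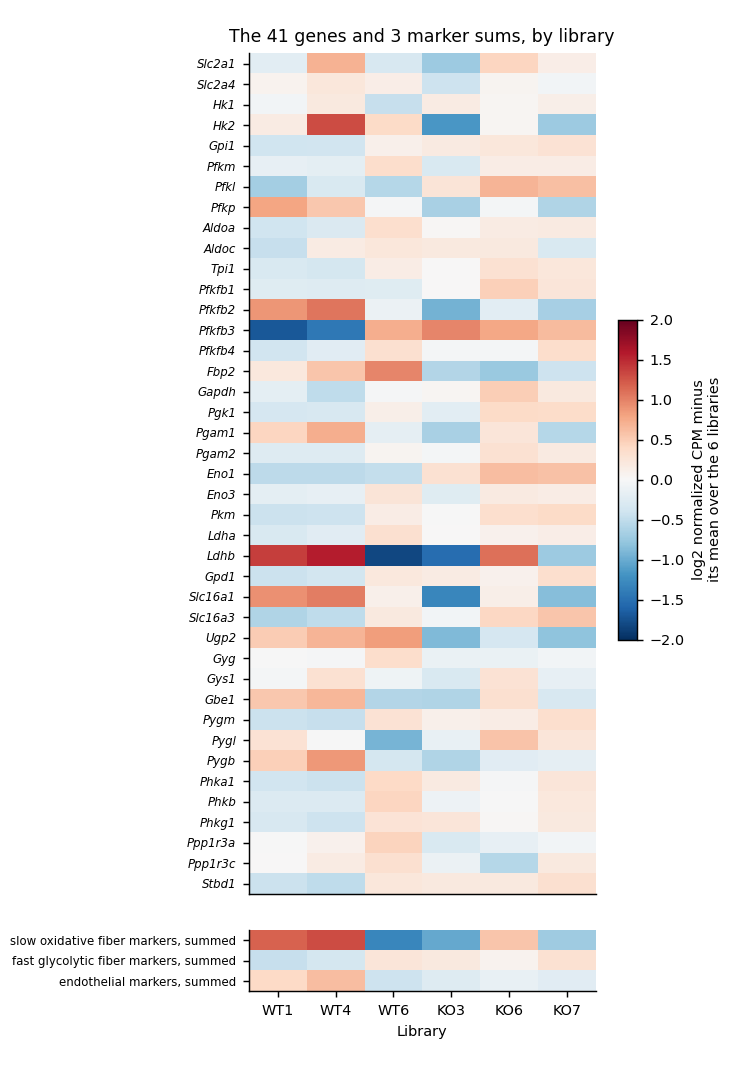
log2 normalized CPM of each of the 41 genes in each library minus its mean over the 6 libraries, with the summed slow fiber, fast fiber and endothelial markers below on the same color scale (red above the mean, blue below). Ldhb follows the slow marker row across all 6 libraries, Pfkfb3 is low in WT1 and WT4 alone, and Ugp2 divides WT from Sirt6 KO libraries.

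Genes of the same pathways outside the 41 were counted from a list of 51, of which 41 had enough reads to be tested. Of these, 7 rose and 1 fell, 19.5% against the 16.2% of all genes. With the GC trend removed 3 were higher and 0 lower, so the call of Ppp1cb below was lost, as it was without WT4, KO3 or KO7. None was called higher without WT1, WT4, KO3 or KO7, in fits that called 3.15%, 1.78%, 0.0568% and 0.0921% of all genes. By edgeR on all 6 libraries, the adjusted p of the 7 ran from 0.018 to 0.045. Those that rose were Phka2 and Phkg2, the liver subunits of phosphorylase kinase (log2 fold change 0.66 and 0.69), Ppp1r3d, another glycogen-targeting subunit of protein phosphatase 1 (1.09), Slc37a4, the glucose-6-phosphate translocase of the endoplasmic reticulum (0.76), Pgp, a phosphoglycolate phosphatase (0.70), Slc2a8, the intracellular glucose transporter GLUT8 (0.66), and Mlxip, the glucose-sensing factor MondoA (0.77). Ppp1cb, a catalytic subunit of protein phosphatase 1, fell from 523 ± 21.4 to 312 ± 22.7 CPM (SD, n = 3, log2 fold change -0.75, SE 0.12, adjusted p = 0.015). Phka2 and Phkg2 were rare beside the muscle subunits, at 8.14 and 5.32 CPM in WT, whereas the muscle subunits Phka1 and Phkg1 stood at 1334 and 565 CPM.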

How the data were processed

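Libraries of poly-A RNA from 6 samples of mouse GAS muscle were compared. The authors deposited 1 table, built on mm10 and NCBI gene identifiers, with whole-number read counts, FPKM and TPM per gene and library from StringTie 2.1.3b. HISAT2 2.1.0 and Bowtie2 2.3.4.1 are also in the submitters' processing notes, whereas the study's reporting summary names STAR. The labels name a stranded kit and the methods another, and the strand setting of the counting is not given in the sources used here. StringTie counts derive from coverage, so reads of near-identical copies can be divided between them.

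From the deposited counts, 13801 genes passed edgeR's filterByExpr (edgeR 4.0.16, R 4.3.3). Normalized CPM used TMM factors of 0.909 to 1.11, and 1 count was worth 0.0165 to 0.0212 CPM. WT and Sirt6 KO were compared by edgeR's quasi-likelihood test with group as the only term, and Benjamini-Hochberg adjustment over all tested genes with a threshold of 0.05. The common biological coefficient of variation was 24.1%. Levels between genes use the deposited TPM, and the deposited FPKM entered only limma 3.58.1 fits of quantile-normalized log2(FPKM + 1) and log2(FPKM + 0.1) over 10683 genes with FPKM above 1 in any library. DESeq2 1.42.0, its size factors, other count filters, a fit on counts with the GC trend removed (lowess, span 0.3, 13715 genes), the slow marker covariate, the replicate block and leaving out each library were the alternatives. The edgeR step was tested on simulated counts. Gene positions and promoters come from RefSeq, with 24462 identifiers matched. The labels do not say that replicates came from separate mice beyond their numbers, so p-values measure the spread between these 6 libraries.

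All 41 genes are described by role. Those past the threshold get every library's value, as do the most abundant isozyme of each glycolytic step and genes without overlap between groups. Of 51 further pathway genes, those past the threshold are named. The members, lists and tests were chosen with earlier results of these data known.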

Additional observations from a re-analysis of the deposited data

How the results depend on the processing

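The limits are the small number of libraries and their unequal fiber markers, and WT6, KO3 and KO7, left out singly, moved the count of calls most. Of the 41 genes, 3 rose and 3 fell by edgeR. The DESeq2 Wald test called 5 and 6 (1730 higher and 1801 lower over all genes, against 1084 and 1158), and the slow marker covariate 5 and 6. Removing the GC trend left 3 and 2, without Pfkfb2, with 468 and 483 over all genes. Without any filter on low counts Pfkfb1 was lost. The same replicate numbers correlated at -0.106, 0.260 and 0.161 in their deviations, and WT1 correlated best with KO6 (0.209), so the numbers were not taken as pairs. The replicate block gave 2 higher and 5 lower among the 41 genes, adding Hk2 and Slc16a1 and losing Pfkfb1. Leaving out 1 library gave 0 to 16 higher and 0 to 6 lower, and 6 to 2363 and 2 to 2219 over all genes. The highest counts came without WT6, and without KO3 or KO7 none of the 41 passed. Among the other pathway genes, leave-one-out counts ran from 0 to 17 higher and from 0 to 4 lower. Their count of higher genes was 3 with the GC trend removed. Their count of lower genes was 2 by DESeq2, with at least 10 counts in every library and in the replicate block, 3 with the covariate and 0 with the GC trend removed, when 12 of the 41 tested had an unadjusted p under 0.05 in either direction. The log2 fold change of Sirt6 ran from 1.37 to 1.55 over the fits without 1 library, and its call was lost without KO3 or KO7.

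The values below had changed sign, none of them past the threshold, and the cause was not tested. Most belong to genes with a log2 fold change near 0, but Ldhb (-0.92) and Ppp1r3a (-0.36) were farther from it. Pfkm went to 0.000317 by DESeq2, 0.000318 with its size factors, 0.0038 without a filter and 0.0051 in the replicate block. In the limma fits with pseudocounts of 1 and 0.1, Aldoa went to -0.127 in both and Eno3 to -0.00144 and -0.00145. With the GC trend removed, Aldoa was at -0.025, Aldoc at -0.062, Eno3 at -0.109, Hk1 at -0.027, Pfkfb4 at -0.018 and Ppp1r3a at 0.048. With the covariate, Aldoc was at -0.0022, Gys1 at 0.0074, Ldhb at 0.33, Slc2a1 at 0.14 and Phkb at -0.085. Over the fits without 1 library, Slc2a1 ran from -0.36 to 0.28, Pfkm from -0.099 to 0.20, Aldoc from -0.13 to 0.19, Eno3 from -0.0052 to 0.23, Gys1 from -0.29 to 0.027 and Phkb from -0.081 to 0.32. The difference in log2 ratio ran from -0.082 to 0.26 for Aldoa over Aldoc, from -0.41 to 0.56 for Pygm over Pygl and from -0.45 to 0.017 for Slc2a4 over Slc2a1. Over all alternatives of the 41 genes, 524 values kept direction and side of the threshold, 30 moved past it, 24 fell short of it and 33 changed sign. Ugp2, Eno1, Pfkl and Fbp2 passed in all 9 settings that kept every library. The median log2 fold change over the 41 genes ran from -0.018 with the GC trend removed to 0.23 without WT6. Depth was lowest for Aldoc, with 13 to 25 counts per library, and Pygl had 66 to 198. Neither gene was among those in the limma fits.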
